A study of Mus musculus with 25 samples.

Results

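Internal introns of over 3000 and up to 10000 bases lie between the first and the last intron of their gene. They are called mid-length here only as a short name, since most listed introns are shorter, with a median of 1281 bases. They were taken from the deposited intron list by length and position alone, with introns numbered along each gene from its 5′ end. Of 163337 listed introns in 17596 genes, 22347 met the rule, or 13.682%. They lay in 8270 genes on 21 chromosomes, and their median length was 4591 bases. A gene with such an intron had a median of 2 of them, 3370 genes had 1, and Dnah9, which encodes an axonemal dynein heavy chain, had 33. An annotated GENCODE M21 exon lay inside 29.046% of them, which leaves 15856 with no exon inside.

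Introns are removed by the spliceosome. The SF3B complex of the U2 particle contacts the branch point near the 3′ end of the intron, and H3B-8800 is a small molecule that binds SF3B1, the largest subunit of that complex. When an intron is not removed it stays in the transcript, and such transcripts are often held in the nucleus or degraded.

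The libraries were polyA-selected RNA of whole breast tumors, 1 library per tumor, from 4 transplanted mouse models of triple-negative breast cancer. Females were 4 to 5 weeks old when tumors were placed in the mammary gland. In C57BL/6 hosts, PyMT-M had 4 H3B-8800 and 4 vehicle tumors, and AT3 had 2 H3B-8800 and 3 vehicle tumors. In Balb/c hosts, 2208L and T11 each had 3 tumors labelled H3B-8800 and 3 labelled vehicle. PyMT-M and 2208L are marked as responders in the labels, and AT3 and T11 as nonresponders. Each library held 10863779 to 22377777 reads overlapping the listed introns, of which 166274 to 1066990 were intronic reads of the 22347 introns. The luminal markers were present in PyMT-M and 2208L and low in T11 and AT3: Epcam, an epithelial adhesion molecule, had 1165 to 1683 CPM (spliced reads of the gene scaled to the library total) in PyMT-M H3B-8800 tumors and 1528 to 1951 in PyMT-M vehicle tumors, against at most 3.13 in any AT3 tumor and 8.07 in any T11 tumor.

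Several libraries stand apart. In T11, retention ran against the labels, so these libraries are called by their labels throughout. Whether the T11 labels are exchanged cannot be told from the files. Sf3b1, the gene of the drug's target, had 404 to 498 CPM in T11 tumors labelled H3B-8800 and 515 to 871 in those labelled vehicle. Its levels went the other way in PyMT-M (739 to 852 CPM with H3B-8800, 469 to 679 with vehicle), AT3 (650 to 765 and 477 to 520) and 2208L (694 to 806 and 459 to 519). Replicate 4 of PyMT-M vehicle had far more intronic reads in long introns than its group. Skeletal muscle or B cell markers were high, by cuts set by hand, in 6 libraries: replicates 1 and 2 of PyMT-M H3B-8800, replicate 2 of AT3 vehicle, replicate 1 of 2208L vehicle, replicate 2 of T11 labelled H3B-8800 and replicate 3 of T11 labelled vehicle. The highest muscle marker sum was 528 CPM in PyMT-M H3B-8800, 5195 in 2208L vehicle, 759 in T11 labelled H3B-8800 and 7829 in T11 labelled vehicle. In AT3 it was at most 19.4. The macrophage marker sum of 9 genes was 570 to 835 CPM in PyMT-M H3B-8800 tumors and 139 to 372 in PyMT-M vehicle tumors, and none of the 9 was at 0 throughout any group. For 2208L the sum was 1399 to 1612 CPM in H3B-8800 tumors and 199 to 813 in vehicle tumors. In AT3 it was 691 to 918 CPM in H3B-8800 tumors and 577 to 850 in vehicle tumors, and in T11 it was 783 to 881 CPM in tumors labelled H3B-8800 and 579 to 791 in tumors labelled vehicle. The B cell and plasma cell sum of 10 genes was 35.6 to 53.5 CPM in 2208L H3B-8800 tumors, with 1 gene at 0 in every library, and 2.51 to 5.64 in 2208L vehicle tumors. These 2208L H3B-8800 tumors are not among the 6 libraries, so fits without the 6 still hold them. In PyMT-M it was 2.12 to 4.36 CPM with H3B-8800 and 3.44 to 4.03 with vehicle, in AT3 1.54 to 2.43 and 1.11 to 68.7, and in T11 1.57 to 215 in tumors labelled H3B-8800 and 0.458 to 0.647 in those labelled vehicle. The basal and myoepithelial sum of 8 genes was 480 to 1149 CPM in PyMT-M H3B-8800 tumors and 218 to 576 in vehicle tumors. It was 354 to 683 CPM in 2208L H3B-8800 tumors and 140 to 355 in vehicle tumors, where Krt14, a basal keratin, was at 114 to 259 CPM with H3B-8800 and 6.13 to 10.2 with vehicle. In AT3 the basal sum was 24.6 to 36 CPM with H3B-8800 and 38.3 to 61.1 with vehicle, and in T11 it was 195 to 319 in tumors labelled H3B-8800 and 204 to 308 in those labelled vehicle, with 2 of the 8 genes at 0 in every library of each of these 4 groups. The part of these cells in the retention values was not tested. In bulk tumors, fewer cells of a type and less RNA per cell cannot be told apart.

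The 6 introns whose junctions follow are among those named for the furthest rise in all 3 of PyMT-M, AT3 and 2208L, and each lies between coding exons. The junctions are given first, since they are the coding sequence that is joined when the intron is removed. Each line shows the last 20 bases of the upstream exon and the first 20 of the downstream one, from GENCODE M21 transcripts on GRCm38, with the 3 bases on each side of the removed intron in capitals. The introns removed are chr5:34431257-34436450 (+) in Fam193a, chr11:32381510-32387927 (+) in Sh3pxd2b, chrX:152253862-152261936 (+) in Kdm5c, chr9:27015322-27019317 (-) in Vps26b, chr2:29702679-29707197 (+) in Rapgef1 and chr12:21224393-21229238 (+) in Asap2.
Fam193a intron 6: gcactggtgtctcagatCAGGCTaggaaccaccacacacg
Sh3pxd2b intron 3: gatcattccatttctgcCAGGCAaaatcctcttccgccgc
Kdm5c intron 12: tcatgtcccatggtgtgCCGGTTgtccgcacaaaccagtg
Vps26b intron 2: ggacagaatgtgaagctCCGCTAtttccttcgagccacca
Rapgef1 intron 8: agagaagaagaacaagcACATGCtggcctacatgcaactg
Asap2 intron 10: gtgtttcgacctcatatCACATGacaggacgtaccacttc
The upstream exon ended in AG at 58.2% of 22308 junctions around these mid-length introns, against 56% of 153552 junctions around all listed introns of at least 100 bases. Among the introns that rose in PyMT-M the share was 57.8% of 3600, and among those that fell it was 55.1% of 383.

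The 3′ ends are shown for introns that fell and for introns that rose, because the branch point region bound by U2 lies there. Sequence inside an intron was available only where a GENCODE M21 transcript runs through it, which held for 1427 of the 22347 introns, so the windows are a small and selected share. Each window is the last 70 bases of the intron on the strand of the gene, and capitals mark CTNAC, a short core of the branch point motif searched on that strand alone. The first 4 introns fell with H3B-8800 in all 3 models, and the last 4 rose past the test in PyMT-M. The windows lie at chr12:83663909-83663978 (+), chr3:158022951-158023020 (-), chr8:11518991-11519060 (-), chr1:38074444-38074513 (-), chr7:45387454-45387523 (-), chr6:72333188-72333257 (-), chr5:123520173-123520242 (-) and chr1:6244035-6244104 (+), in the order given.
Rbm25 intron 9: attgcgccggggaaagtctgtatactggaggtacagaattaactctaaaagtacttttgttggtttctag
Srsf11 intron 2: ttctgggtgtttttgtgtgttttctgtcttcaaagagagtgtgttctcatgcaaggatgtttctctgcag
Cars2 intron 9: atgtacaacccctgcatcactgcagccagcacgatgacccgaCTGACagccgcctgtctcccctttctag
Rev1 intron 9: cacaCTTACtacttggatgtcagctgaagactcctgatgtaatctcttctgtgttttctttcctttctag
Snrnp70 intron 4: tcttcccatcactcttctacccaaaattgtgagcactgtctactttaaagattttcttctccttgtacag
Usp39 intron 6: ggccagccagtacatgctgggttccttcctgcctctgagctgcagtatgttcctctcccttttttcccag
Diablo intron 2: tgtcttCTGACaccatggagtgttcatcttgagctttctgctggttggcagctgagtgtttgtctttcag
Rb1cc1 intron 7: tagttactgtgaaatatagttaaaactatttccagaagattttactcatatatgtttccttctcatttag
CTNAC was in 31.8% of 1425 windows of mid-length introns that end in AG, against 32.6% of 13435 windows of all listed introns of at least 100 bases. It was in 31.6% of 421 windows of introns that rose in PyMT-M, in 34.7% of 75 of those that fell and in 31.7% of 498 of those not called. The median guanine and cytosine content of the windows was 45.7% for introns that rose, 37.1% for introns that fell and 40% for introns not called.

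Retention is the share of intronic reads among all reads overlapping an intron. Over the 4307 mid-length introns with no exon inside and at least 10 overlapping reads in every library, it was higher on average with H3B-8800 in PyMT-M, AT3 and 2208L. In PyMT-M the mean over introns was 33.6%, 28.9%, 27.4% and 29.5% in the H3B-8800 tumors, against 16.7%, 11.7%, 15.6% and 28.4% in the vehicle tumors. Vehicle replicate 4 lay inside the range of the H3B-8800 tumors, and the other vehicle tumors lay below all of them. Without it, the PyMT-M vehicle mean was 14.6% ± 2.64 (SD, n = 3), against 29.9% ± 2.65 (SD, n = 4) in H3B-8800 tumors. In AT3 the mean was 20% and 26.6% with H3B-8800, against 11.9%, 19.1% and 13.3% with vehicle. In 2208L the mean was 18.8%, 17.5% and 16.2% with H3B-8800, against 7.82%, 11.1% and 11.6% with vehicle. The groups did not overlap in AT3 or 2208L, though the highest AT3 vehicle tumor, replicate 2, was within 1 percentage point of the lower H3B-8800 tumor and is one of those with B cell markers. In T11 the order was the other way: 11.7%, 12.1% and 16% in tumors labelled H3B-8800, against 14.2%, 21.7% and 17.7% in tumors labelled vehicle, and these groups overlapped.

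**Figure D1:**
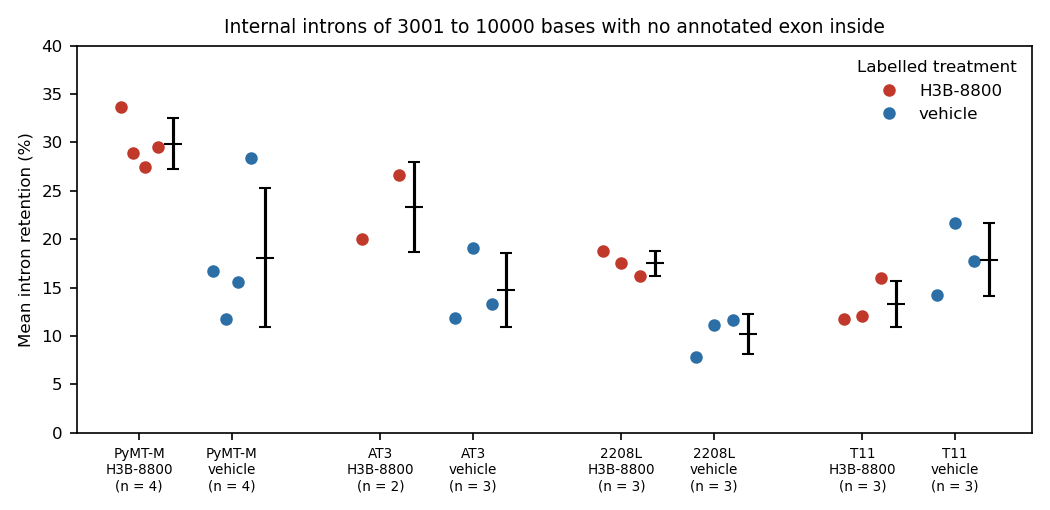
Mean retention (%, vertical axis) over 4307 internal introns of over 3000 and up to 10000 bases with no annotated exon inside, 1 point per tumor, with H3B-8800 in red left of vehicle in blue for each model; the bar beside each group is the mean and 1 SD. The 3 tumors of 2208L H3B-8800 sit between 16.2% and 18.8%, above its vehicle tumors, while PyMT-M vehicle replicate 4 at 28.4% lies among the H3B-8800 tumors.

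When reads were pooled over all 22347 introns instead, 10.6% of the intronic reads came from 5 introns, each with an exon inside, in Cdk8, Gclm, Ide, Rrm2b and Nup93. Pooled retention was 46.3%, 41.7%, 37.3% and 41.9% in PyMT-M H3B-8800 tumors, against 27.8%, 18.8%, 25.3% and 36.5% in PyMT-M vehicle tumors. It averaged 34.7% ± 5.49 (SD, n = 2) in AT3 H3B-8800 tumors and 26.3% ± 5.87 (SD, n = 3) in AT3 vehicle tumors. In 2208L it averaged 25.9% ± 1.37 with H3B-8800 and 18.6% ± 1.53 with vehicle (SD, n = 3 each). In T11 it averaged 23.6% ± 2.82 in tumors labelled H3B-8800 and 28.9% ± 4.34 in tumors labelled vehicle (SD, n = 3 each). The ranges did not overlap in PyMT-M and 2208L and did overlap in AT3 and T11.

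Mid-length introns differed from short ones in 2 ways: their retention in vehicle tumors was already high, and it rose by a smaller factor. Retention is not corrected for length. Per kb and 100 spliced reads, with exon-holding introns included, PyMT-M vehicle tumors had 7.83 intronic reads in mid-length introns. In introns of up to 120 bases they had 25.8, and 2208L vehicle tumors had 4.65 and 14.1. The rise in mean retention was 11.8 percentage points in mid-length introns and 11 in the short ones in PyMT-M, and 7.36 and 3.22 in 2208L. Internal introns of up to 120 bases were retained at 12.9% ± 1.56 in PyMT-M H3B-8800 tumors and 1.92% ± 0.496 in vehicle tumors (SD, n = 4 each). In 2208L the same short introns were at 4.42% ± 0.45 with H3B-8800 and 1.19% ± 0.299 with vehicle (SD, n = 3 each). Internal introns over 10000 bases averaged 26.8% ± 2.62 in PyMT-M H3B-8800 tumors and 28.3% ± 16.6 in vehicle tumors (SD, n = 4 each). Vehicle replicate 4 carried that spread. It was at 53.1% in the introns over 10000 bases, at 28.4% in the mid-length introns and at 2.16% in those of up to 120 bases, or 2.65, 1.94 and 1.18 times the mean of the other vehicle tumors. In T11, introns of up to 120 bases were at 1.37% ± 0.0842 in tumors labelled H3B-8800 and 5.46% ± 1.9 in tumors labelled vehicle (SD, n = 3 each), with no overlap, unlike the mid-length introns.

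**Figure D2:**
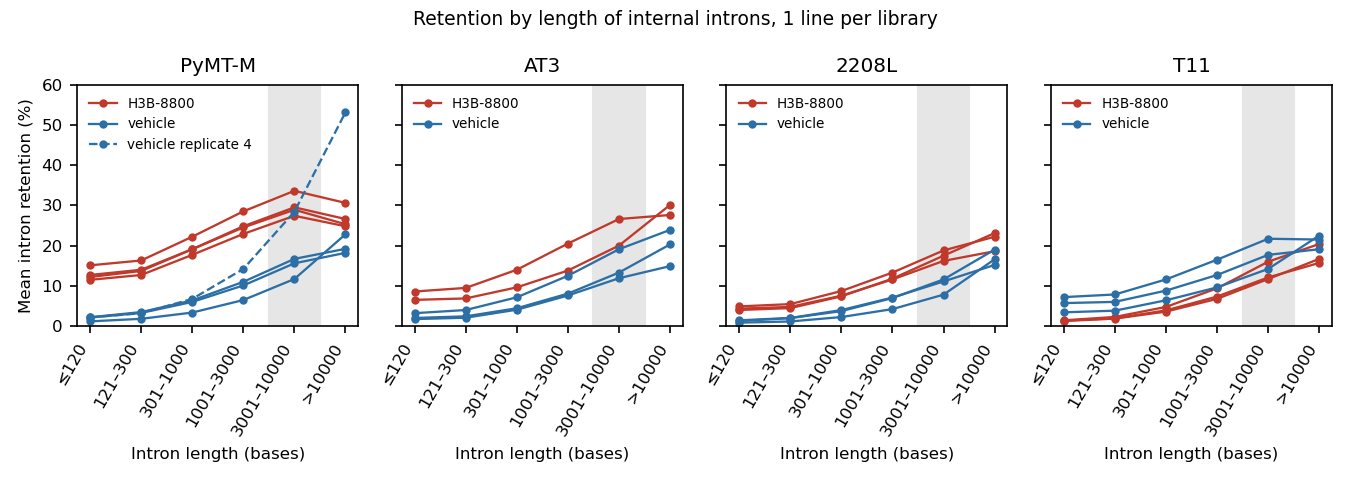
Mean retention (%, vertical axis) of internal introns with no annotated exon inside, by length class in bases (horizontal axis), with 1 line per tumor, H3B-8800 in red and vehicle in blue, and the class of over 3000 and up to 10000 bases shaded. The dashed line is PyMT-M vehicle replicate 4, which is at 2.16% in the shortest class with the other vehicle tumors and reaches 53.1% in the longest class.

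The change of each intron was then tested as intronic reads per spliced read of its gene, by edgeR's quasi-likelihood test with Benjamini-Hochberg adjustment at 0.05 over 52042 introns. The filter on gene level and on low reads left 8213 of the 22347 introns, in 4520 genes. Among the others, 4019 lay in genes below the level filter. In genes above it, 5320 had too few spliced reads, and 4795 had enough spliced but too few intronic reads. The shares that follow therefore hold only for introns with enough intronic reads. Of all 22347, 1909 had no overlapping read in any library. In PyMT-M, 3601 of the 8213 introns rose with H3B-8800 (43.8%) and 386 fell (4.7%), against 54.7% and 5.68% of all 52042 introns tested. In AT3, 1225 rose (14.9%) and 38 fell (0.463%), against 19.4% and 0.317%. In 2208L, 1546 rose (18.8%) and 36 fell (0.438%), against 21% and 0.534%. In T11, 100 were higher in the tumors labelled H3B-8800 (1.22%) and 1037 lower (12.6%), against 0.761% and 19.6%. The share that rose was below that of all introns in each of PyMT-M, AT3 and 2208L. The median log2 change was 1.14 for mid-length introns and 1.57 for all introns in PyMT-M, 0.89 and 1.1 in AT3, 1.03 and 1.07 in 2208L, and -0.51 and -0.84 in T11.

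These counts rest on the scale and on a few libraries. Scaled by the size of the intronic libraries, which sets most introns near 0, PyMT-M gave 1255 higher and 2179 lower, with a median log2 change of -0.28 for mid-length introns and 0.11 for all introns. On that scale AT3 gave 224 higher and 361 lower, 2208L 628 higher and 302 lower, and T11 775 higher and 379 lower. Without PyMT-M vehicle replicate 4, 4266 rose and 209 fell in PyMT-M. Without the 6 libraries with muscle or B cell markers, 2424 rose and 240 fell in PyMT-M, 1090 and 13 in AT3, 360 and 9 in 2208L, and in T11 27 were higher and 299 lower. Without AT3 H3B-8800 replicate 2, 175 rose and 17 fell in AT3, and without AT3 vehicle replicate 1 or 3 there were 496 or 654 calls. In 2208L there were 681 without vehicle replicate 1 and 948 without H3B-8800 replicate 1. In T11 there were 628 or 608 without labelled H3B-8800 replicate 1 or 2, and 643 without labelled vehicle replicate 2.

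Within 1 gene the tested mid-length introns also changed less in the median than the tested short ones. In 1229 genes with both kinds tested and free of annotated exons, the median log2 change in PyMT-M was 1.55 for the mid-length introns and 2.72 for internal introns of up to 1000 bases. The mid-length value was the lower one in 900 of these genes (73.2%). In AT3 it was 1.11 against 1.80 and in 2208L 1.19 against 1.77, with the mid-length value lower in 64.4% and 61.4% of the genes. In T11 it was -0.65 against -1.55. These shares are descriptions, since introns of a gene share their libraries. The filter also asked for a mean of 5 intronic reads over all libraries. Of 11956 internal introns of up to 120 bases 2486 passed it, against 8213 of 22347 mid-length ones. A short intron with few intronic reads in vehicle tumors could pass through the libraries where it was high. The part of the filter in the difference was not tested.

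The change also differed across the range of lengths. In PyMT-M the share that rose was 51.1% of 2997 introns of over 3000 to 4000 bases and 32.6% of 818 introns of over 8000 to 10000 bases, and the share that fell was 3.14% and 8.44%. In 2208L the share that rose was 20.6% in the shortest bin and 16.7% in the longest, and in AT3 it was 17% and 12.2%. The median log2 change was 0.95 in the shortest bin and 0.92 in the longest in AT3, 1.11 and 0.88 in 2208L, and -0.60 and -0.41 in T11. The excess of PyMT-M vehicle replicate 4 over the mean of the other vehicle tumors also differed with length, at 1.94 times in the mid-length introns and 2.65 times in those over 10000 bases, and its part in the PyMT-M trend was not tested. Median intronic reads per library were 18.8 in the shortest bin and 20.2 in the longest. Just inside the lower limit, 242 exon-free introns of over 3000 to 3100 bases averaged 25.5% retention in PyMT-M H3B-8800 tumors and 13.7% in vehicle tumors. Just outside it, 240 introns of over 2900 to 3000 bases averaged 29.5% and 13.9%. At the upper limit, 159 introns of over 9000 to 10000 bases averaged 28.2% with H3B-8800 and 21.8% with vehicle, and 111 of over 10000 to 11000 bases averaged 22.7% and 21.5%. These PyMT-M vehicle means include replicate 4. In AT3 the averages on the 2 sides of the lower limit were 18.7% inside and 21.1% outside with H3B-8800, against 11.6% and 12.5% with vehicle, and in 2208L 13.8% and 15.2%, against 8.11% and 7.9%. At the upper limit the AT3 averages were 24.7% inside and 22.9% outside with H3B-8800, against 15.8% and 15% with vehicle, and those of 2208L 19.1% and 16.6%, against 11.5% and 11.2%. Position in the gene moved the shares little: 44.5% of 1173 second introns and 42.3% of 671 penultimate introns (numbered sixth or later) rose in PyMT-M.

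**Figure D3:**
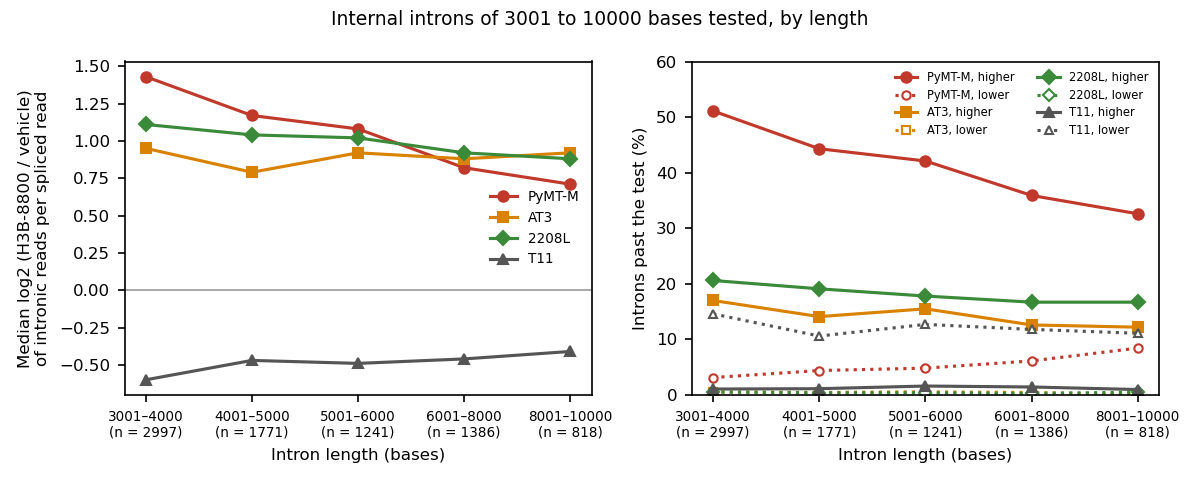
Introns of over 3000 and up to 10000 bases tested, in 5 bins of length (horizontal axis, bases): the median log2 change of H3B-8800 over vehicle in each model (left) and the share past edgeR's test in each direction (right, %). The PyMT-M median is 1.43 in introns of over 3000 to 4000 bases and 0.71 in introns of over 8000 to 10000 bases, while T11 is below 0 in every bin.

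Retention in vehicle tumors and an exon inside went with the size of the change. Where mean retention in vehicle tumors of the 3 models was under 5%, 55.2% of 762 introns rose in PyMT-M and 2.1% fell. Where it was 40% or more, 39.3% of 1609 rose and 8.58% fell. The vehicle values enter both the bins and the change, so these shares are a description. Introns with an exon of their own gene inside had a median log2 change of 0.90 in PyMT-M and 0.83 in 2208L, against 1.29 and 1.14 for those without an exon. Of the introns lower in T11 labelled H3B-8800, the share was about the same with an exon inside (12.8% of 3486) and without one (12.5% of 4727). In introns that hold an exon, reads of that exon and of the intron around it cannot be told apart.

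Rises were shared between models. Of the mid-length introns that rose in AT3, 89.1% also rose in PyMT-M, which is 30.3% of those that rose in PyMT-M. Of those that rose in 2208L, 84.5% also rose in PyMT-M, which is 36.3% of the PyMT-M introns. Of all mid-length introns tested 43.8% rose in PyMT-M, against 54.7% of all 52042 introns. These overlaps between models were not counted over all 52042 introns, so they cannot be called particular to mid-length ones. In all 3 models 655 introns rose, in 612 genes. Without AT3 H3B-8800 replicate 2 there were 90, without AT3 vehicle replicate 1 or 3 there were 320 or 370, without 2208L vehicle replicate 1 there were 416, and without the 6 libraries there were 229. The 655 are 7.98% of the introns tested, against 10.7% of all 52042. In T11, 651 of these 655 had a negative change and 417 passed the test as lower in the tumors labelled H3B-8800 (63.7%), and none passed as higher. Of all mid-length introns tested 12.6% were lower there and 1.22% higher, against 19.6% and 0.761% of all 52042. The T11 shares of all introns that rose in the 3 models were not counted. Of 813 tested introns next to the 655 and outside that set, 75% rose in PyMT-M, 32% in AT3 and 35.5% in 2208L. Of 3036 introns next to those called in none of the 3 models, 40.7%, 13.8% and 15.1% rose. Neighbours share their gene's spliced reads with the 655, which are the scale of the test, so these shares are a description.

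Fam193a intron 6 was retained in nearly all overlapping reads of PyMT-M H3B-8800 tumors. Its retention was 97.1%, 94.1%, 95.8% and 96.3% in PyMT-M H3B-8800 tumors, against 0%, 16.7%, 4.55% and 68.3% in vehicle tumors. An adjusted p under 0.05 and no overlap in PyMT-M, AT3 and 2208L were part of the rule that named this intron. The same holds for the introns of Kdm5c, Sh3pxd2b, Asap2, Rapgef1, Vps26b and Fblim1 below. Their separation and p-values in these models follow from the choice. The highest PyMT-M vehicle value of Fam193a intron 6 is replicate 4. The 2208L values were 84%, 73.2% and 66.7% with H3B-8800, against 0 intronic reads of 67 overlapping reads with vehicle, which allows up to 4.48%. In T11 it was 7.41%, 0% and 18.7% in the tumors labelled H3B-8800, against 78%, 90.8% and 81.9% in those labelled vehicle. The log2 change was 5.67 ± 0.85 (SE) in PyMT-M and -5.21 ± 1.00 in T11, with adjusted p of 7.81e-06 and 0.000749 by edgeR.

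Kdm5c encodes an X-linked demethylase of histone H3 lysine 4. Intron 12 was retained at 95.1%, 89.3%, 91.7% and 91.8% in PyMT-M H3B-8800 tumors, against 11.6%, 25.7%, 5.45% and 48.1% in vehicle tumors. In AT3 it was 60.9% and 86.1% with H3B-8800, against 3.33%, 20% and 8.7% with vehicle. In 2208L tumors they were 71.2%, 49.3% and 53.6% against 2.86%, 1.53% and 11.2%. No overlap in each model was asked by the rule that named this intron. The intron just before it, of 93 bases, stayed at 1.48% ± 1.07 in PyMT-M H3B-8800 tumors and had no intronic read in vehicle tumors (SD, n = 4). The intron just after it, of 106 bases, averaged 31.4% ± 6.22 with H3B-8800 (SD, n = 4) and had no intronic read with vehicle.

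Sh3pxd2b, an adaptor of invadopodia, had intron 3 at 88.8%, 52.8%, 76.5% and 74.3% in PyMT-M H3B-8800 tumors, against 3.85%, 5.41%, 0% and 38.1% in vehicle tumors. Vehicle replicate 4 was again the highest of its group. The AT3 tumors were at 9.09% and 53.9% with H3B-8800, against 3.12%, 0% and 0% with vehicle.

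Asap2 encodes an activator of ARF GTP hydrolysis. Intron 10 was at 97%, 89.7%, 83.8% and 97.5% in PyMT-M H3B-8800 tumors, against 13.8%, 23.1%, 0% and 30% in vehicle tumors. In 2208L its retention was 75.6%, 64.1% and 77.2% with H3B-8800, against 5.8%, 15.2% and 7.55% with vehicle. The log2 change was 5.35 ± 0.61 in PyMT-M, 5.34 ± 0.72 in AT3 and 4.52 ± 0.65 in 2208L, and -4.77 ± 0.63 in T11 (SE; adjusted p of 1.32e-08, 1.15e-05, 1.74e-05 and 1.8e-06 by edgeR). At the gene level its spliced reads fell by 1.13 on the log2 scale in PyMT-M (adjusted p = 0.000538 by edgeR).

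Rapgef1 encodes a guanine nucleotide exchange factor for the GTPase Rap1. Retention of intron 8 was 73.1%, 49.6%, 73.7% and 57% in PyMT-M H3B-8800 tumors, against 1.39%, 2.33%, 0% and 5.13% in vehicle tumors. Its neighbours, introns 7 and 9, averaged 2.8% ± 3.31 and 8.59% ± 2.34 in the same H3B-8800 tumors, and 0.833% ± 1.67 and 1.61% ± 3.23 in vehicle tumors (SD, n = 4 each). Vps26b, a subunit of the retromer that sorts endosomal cargo, had intron 2 retained at 71.9%, 68.1%, 63.2% and 69.7% in PyMT-M H3B-8800 tumors, against 3.81%, 1.89%, 2.15% and 0% in vehicle tumors. Here vehicle replicate 4 was the lowest tumor of its group. Fblim1, a filamin-binding adaptor of cell adhesions, had intron 2 at 65%, 65.9% and 62.7% in 2208L H3B-8800 tumors, against 8.74%, 7.46% and 8.26% in vehicle tumors. Each of these 2208L groups spanned a few percentage points.

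**Figure D4:**
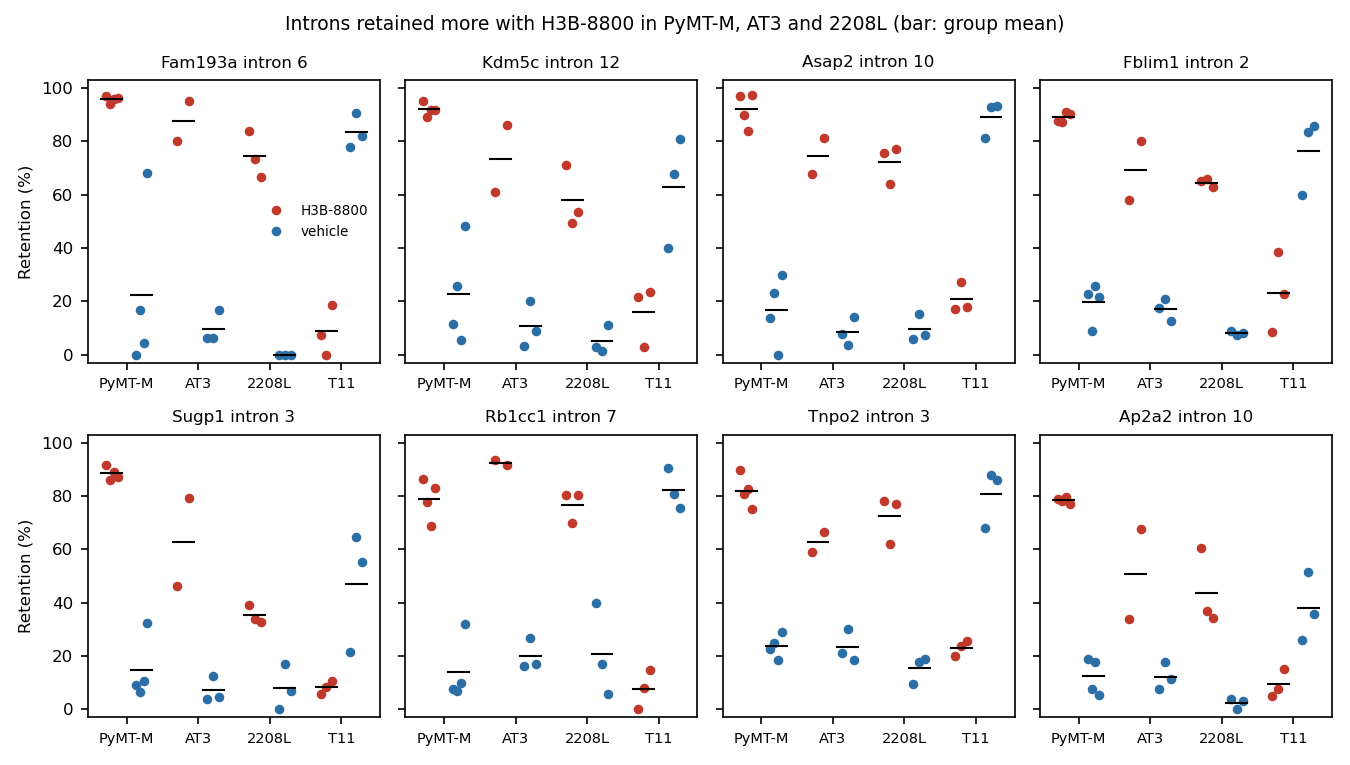
Retention (%, vertical axis) of 8 introns in every tumor, with H3B-8800 in red left of vehicle in blue for each model and black bars at group means; T11 points are by label. Fam193a intron 6 lies between 94.1% and 97.1% in PyMT-M H3B-8800 tumors, and its T11 tumors labelled vehicle lie between 78% and 90.8%.

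Among genes of the splicing machinery, the U2 particle and SF3B list had 24 tested introns, of which 14 rose and 2 fell in PyMT-M, 6 and 1 in AT3, and 7 and none in 2208L. Over all 8213 mid-length introns tested, 43.8% rose and 4.7% fell in PyMT-M, 14.9% and 0.463% in AT3, and 18.8% and 0.438% in 2208L, and the counts of this and the other lists, of 18 to 97 introns, stand beside those shares with no test of the difference. Sugp1, a partner of SF3B1 in branch point choice, had intron 3 at 91.8%, 86.2%, 89% and 87% in PyMT-M H3B-8800 tumors, against 9.23%, 6.45%, 10.5% and 32.5% in vehicle tumors. Cherp, a U2-associated protein, had intron 2 at 85.6%, 76.9%, 81.1% and 82.3% with H3B-8800, against 22.6%, 25.5%, 22.8% and 40% with vehicle in PyMT-M. Introns named from the lists were those with the smallest p in PyMT-M, so a change in that model was part of the choice. Cherp intron 2 holds an exon of its gene. U2af2, the large subunit of the U2 auxiliary factor that reads the polypyrimidine tract, had intron 7 at 23%, 21.2% and 19.6% in 2208L H3B-8800 tumors, against 2.98%, 11.9% and 9.35% in vehicle tumors (adjusted p = 0.0503 by edgeR). In PyMT-M its log2 change was 2.94 ± 0.52 (SE; adjusted p = 1.52e-05).

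The core factors of the U1, U5 and tri-snRNP particles had 29 tested introns, of which 13 rose and 1 fell in PyMT-M, 3 and none in AT3, and 6 and none in 2208L. Snrnp70, the U1 70K protein, had intron 4 at 66.4%, 61.7% and 51.2% in 2208L H3B-8800 tumors, against 14.3%, 31.4% and 29.4% in vehicle tumors. Usp39, a factor of tri-snRNP assembly, had intron 6 at 67.5%, 57%, 50% and 50.4% in PyMT-M H3B-8800 tumors, against 3.77%, 6.78%, 13.5% and 28.3% in vehicle tumors. Both hold an exon of their own gene, and Snrnp70 intron 4 also overlaps Gm22478.

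The SR proteins, hnRNPs and their kinases held introns that rose and introns that fell. Of 23 tested, 12 rose and 4 fell in PyMT-M, 3 and 2 in AT3, and 3 and 2 in 2208L, and 5 were higher and none lower in T11 labelled H3B-8800, where 1.22% of all mid-length introns were higher and 12.6% lower. Srsf10, a splicing regulator, had intron 2 at 93.9%, 93.4%, 94.2% and 92.1% in PyMT-M H3B-8800 tumors, against 69.5%, 64.4%, 83.7% and 81.1% in vehicle tumors. This intron holds an exon of its own gene. Its 5′ splice site at chr4:135858407-135858418 (+) starts with AT and not GT, and is shown with the last 3 exon bases in front and the first intron bases in capitals. Some introns of the minor spliceosome start this way.
Srsf10 intron 2: tcaATatccttt

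In the other gene lists rises also outnumbered falls, as they did over all 8213 mid-length introns, of which 43.8% rose and 4.7% fell in PyMT-M. Of nuclear pore and export introns 40 of 75 rose and 4 fell in PyMT-M, and of mitosis introns 32 of 69 rose and 3 fell. Of vesicle coat introns 38 of 80 rose and 1 fell, of autophagy introns 20 of 44 rose and 1 fell, and of receptor tyrosine kinase and PI3K introns 30 of 81 rose and 3 fell. Of cell death introns 10 of 22 rose and 1 fell. None fell among 55 DNA repair introns or 18 introns of double-stranded RNA sensing and interferon genes, of which 16 and 6 rose. Of histone methylation introns 23 of 97 rose and 7 fell in PyMT-M. Its median log2 change was 0.34, against 1.14 for all 8213 mid-length introns. In AT3 no introns of these 9 lists fell, and in 2208L 1 intron fell, of the receptor tyrosine kinase list.

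Tnpo2, an import receptor of the karyopherin family, had intron 3 at 89.7%, 80.7%, 82.7% and 75% in PyMT-M H3B-8800 tumors, against 22.7%, 25%, 18.4% and 29.2% in vehicle tumors. The 2208L tumors were at 78%, 62.1% and 77.2% with H3B-8800, against 9.46%, 17.9% and 18.9% with vehicle. Its spliced reads at the gene level fell by 1.38 on the log2 scale in PyMT-M (SE 0.16, adjusted p = 6.99e-06 by edgeR). Sec13, a shared subunit of the nuclear pore and of the COPII coat, had intron 5 at 76.1%, 73.8%, 66.4% and 69.5% in PyMT-M H3B-8800 tumors, against 7.32%, 3.1%, 11.5% and 5.11% in vehicle tumors. The gene-level value of Sec13 was a log2 of 0.31 ± 0.16 (SE; adjusted p = 0.17). Both introns were chosen by their p in PyMT-M, and at the gene level only Tnpo2 passed the test there.

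Bub1b, a kinase of the spindle checkpoint, had intron 9 at 77.1%, 74.3%, 90% and 74.6% in PyMT-M H3B-8800 tumors, against 2.06%, 0%, 10.5% and 21.1% in vehicle tumors. Retention in 2208L was 22.6%, 19.6% and 16% with H3B-8800, against 0%, 1.11% and 3.81% with vehicle. Retention in AT3 was 12.9% and 31% against 2.58%, 6.61% and 3.28%. Retention was highest in PyMT-M, where the intron was chosen by its p, and the groups were also apart in AT3 and 2208L. Gene-level spliced reads of Bub1b fell by 1.62 on the log2 scale in PyMT-M (adjusted p = 0.000245 by edgeR), and in 2208L the value was -0.71 (adjusted p = 0.136). Ncaph, a condensin subunit, had intron 13 at 80.6%, 80%, 69.7% and 65.7% in PyMT-M H3B-8800 tumors, against 8.93%, 3.33%, 19.4% and 5.81% in vehicle tumors.

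Rb1cc1 encodes FIP200, a scaffold of the kinase that starts autophagy. Intron 7 was at 86.4%, 77.9%, 68.6% and 83.1% in PyMT-M H3B-8800 tumors, against 7.81%, 6.9%, 10% and 32.1% in vehicle tumors. The AT3 tumors were at 93.4% and 91.7% with H3B-8800, against 16.2%, 26.7% and 17.2% with vehicle. An exon of Rb1cc1 lies inside it. In T11 it was at 0%, 8.11% and 14.8% in tumors labelled H3B-8800, against 90.7%, 80.8% and 75.7% in tumors labelled vehicle. Intron 8 of the same gene, of 519 bases, averaged 57.9% ± 11.9 in PyMT-M H3B-8800 tumors and 1.97% ± 3.95 in vehicle tumors (SD, n = 4 each). Ap2a2, a subunit of the AP2 adaptor of clathrin coats, had intron 10 at 79%, 78.2%, 79.8% and 77% in PyMT-M H3B-8800 tumors, against 18.9%, 7.59%, 17.9% and 5.41% in vehicle tumors.

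Tbk1 encodes a kinase that signals to interferon genes. Intron 4 was at 60.1%, 64.6%, 48.6% and 60% in PyMT-M H3B-8800 tumors, against 2.41%, 9.09%, 6.67% and 39.6% in vehicle tumors. In 2208L its retention was 9.41%, 9.88% and 2.7% with H3B-8800, against 0%, 0% and 4.55% with vehicle, and did not pass the test (adjusted p = 0.116 by edgeR), with overlapping groups. The difference between PyMT-M and 2208L did not pass either (adjusted p = 0.892). Diablo, a mitochondrial protein released in cell death, had intron 2 at 18.6%, 23% and 16.9% in 2208L H3B-8800 tumors, against 0%, 2.13% and 7.14% in vehicle tumors. That intron holds Mir7647 and an exon of Diablo.

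In all 3 models 4 introns fell: intron 9 of Rbm25, intron 2 of Srsf11, intron 9 of Cars2 and intron 9 of Rev1. Leaving out 1 library gave 0 to 4 such introns, with none without 2208L H3B-8800 replicate 3. Rbm25 is a splicing factor that binds exonic enhancers. Its intron 9 was at 15.9%, 32.8%, 17.7% and 20.4% in PyMT-M H3B-8800 tumors, against 76.3%, 59%, 72.6% and 72.8% in vehicle tumors. Retention in AT3 was 51.9% and 40.8% with H3B-8800, against 72.5%, 87.4% and 72.6% with vehicle. The 2208L tumors were at 33%, 25.2% and 21.4% against 52%, 60.3% and 56.4%. No group overlapped in these models. In T11 the order was the other way, at 67%, 73.1% and 76.2% in tumors labelled H3B-8800, against 13.2%, 39.8% and 15.5% in those labelled vehicle. The log2 change was -2.90 ± 0.42 in PyMT-M and 2.77 ± 0.48 in T11 (SE; adjusted p of 7.67e-07 and 9.13e-05 by edgeR). Its neighbours did not move alike: intron 10 had a log2 change of 0.10 (adjusted p = 0.911) and averaged 7.5% ± 2.17 in PyMT-M H3B-8800 tumors and 6.65% ± 4.76 in vehicle tumors (SD, n = 4 each). Gene-level spliced reads of Rbm25 rose by 0.61 on the log2 scale in PyMT-M (adjusted p = 0.00167) and by 0.71 in 2208L (adjusted p = 0.0058).

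Srsf11, an SR protein, had intron 2 at 56.3%, 65.7%, 59.8% and 59% in PyMT-M H3B-8800 tumors, against 94.6%, 84.8%, 93.9% and 87.9% in vehicle tumors. Retention in 2208L was 63.3%, 62% and 58.6% with H3B-8800, against 64.7%, 83.9% and 83.6% with vehicle, where replicate 1, the lowest vehicle tumor, is the one with muscle markers. Cars2, the mitochondrial cysteine tRNA synthetase, had intron 9 at 65.7%, 69.1%, 40.6% and 57.8% in PyMT-M H3B-8800 tumors, against 93.4%, 87.4%, 91.3% and 92.9% in vehicle tumors. Rev1, a translesion DNA polymerase, had intron 9 at 50%, 58.9%, 47.4% and 45.7% with H3B-8800, against 85.6%, 66.2%, 84.1% and 86.7% with vehicle in PyMT-M. In AT3 the groups of Rev1 overlapped, at 63.6% and 80% with H3B-8800 and 80%, 75.4% and 79.4% with vehicle, although the test per spliced read of the gene passed (adjusted p = 0.0241 by edgeR). In 2208L the groups of Cars2 and of Rev1 overlapped as well. All 4 introns hold an annotated exon of their own gene. In T11 all 4 were higher in the tumors labelled H3B-8800 and passed the test.

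Memo1, a regulator of cell motility, had an intron that fell in PyMT-M, with a change that differed from that in 2208L. Intron 6 was at 2.42%, 12.3%, 5.13% and 1.16% in PyMT-M H3B-8800 tumors, against 50.7%, 30.5%, 49.8% and 55.4% in vehicle tumors. In 2208L its retention was 22.6%, 24.9% and 26.2% with H3B-8800, against 23.2%, 35% and 26.4% with vehicle, and these groups overlapped. The difference of the log2 changes, PyMT-M minus 2208L, was -3.62 ± 0.80 (SE; adjusted p = 0.048 by edgeR). A coding exon of 53 bases lies inside this intron at chr17:74220488-74220540 (-), and its reads count as intronic here, so its sequence is shown.
Memo1 exon inside intron 6: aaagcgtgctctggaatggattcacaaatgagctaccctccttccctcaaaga
Fam49b intron 4 holds no exon. It was at 15.1%, 16.7%, 10.5% and 11% in PyMT-M H3B-8800 tumors, against 58.8%, 42.4%, 60% and 69% in vehicle tumors, and at 9.42%, 6.33% and 11.3% against 15.6%, 20.4% and 16.5% in 2208L. The groups were apart in both, and only PyMT-M passed the test (log2 -3.03 ± 0.51, adjusted p = 6.66e-06; 2208L adjusted p = 0.179).

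The effects of H3B-8800 differed past the test between PyMT-M and 2208L for 9 of the 8213 introns (0.11%), against 0.115% of all introns. The effect was higher in PyMT-M for 6 and lower for 3, against 0.0845% and 0.0307% of all introns. Between PyMT-M and AT3, and between AT3 and 2208L, none of the 8213 passed by edgeR, against 0.00192% of all introns in each. At an unadjusted p under 0.05 by edgeR there were 652 and 522 of the 8213. With no difference at all a share of about 0.05 would pass that cut, and it was not counted over all introns. DESeq2 gave 32 and 2 after adjustment. The 9 calls depend on single tumors: without 1 of the tumors of PyMT-M or 2208L there were 1 to 27, the lowest without 2208L H3B-8800 replicate 1 and the highest without PyMT-M vehicle replicate 4. There were none without the 6 libraries with muscle or B cell markers.

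Anxa3, an annexin that binds membrane phospholipid, had the smallest p of these differences. Intron 7 was at 16.7%, 18.4%, 18.4% and 23% in PyMT-M H3B-8800 tumors, against 75.1%, 59.5%, 75.2% and 76.3% in vehicle tumors. The AT3 tumors were at 27.6% and 36.4% with H3B-8800, against 70.7%, 83.6% and 62.2% with vehicle. The 2208L tumors were at 12.9%, 8.91% and 10.5% with H3B-8800, against 3.07%, 10.1% and 9.83% with vehicle. The vehicle tumors of the C57BL/6 hosts were thus all high, and those of 2208L all low. The difference, PyMT-M minus 2208L, was -3.86 ± 0.56 (SE; adjusted p = 0.00167 by edgeR). An exon of Anxa3 lies inside this intron.

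Eif2ak4, the kinase GCN2 that senses uncharged tRNA, had intron 16 at 89%, 83.8%, 84.9% and 88.2% in PyMT-M H3B-8800 tumors, against 26.2%, 11.8%, 52.9% and 33.3% in vehicle tumors. Retention in 2208L was 11.9%, 20.8% and 12% with H3B-8800, against 26.1%, 41% and 16.7% with vehicle. These 2208L groups overlapped, and the difference, PyMT-M minus 2208L, was 4.57 ± 0.83 (SE; adjusted p = 0.0136 by edgeR). Mccc2, a subunit of methylcrotonyl-CoA carboxylase, had intron 13 at 25.7%, 23%, 18.6% and 21% in PyMT-M H3B-8800 tumors, against 56.2%, 39.9%, 58.2% and 57.9% in vehicle tumors. In 2208L its retention was 28.6%, 20% and 9.23% with H3B-8800, against 0%, 0% and 4.44% with vehicle. It fell in PyMT-M (log2 -1.96 ± 0.53, adjusted p = 0.0019) and rose in 2208L (log2 3.95 ± 1.00, SE, adjusted p = 0.00511 by edgeR).

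**Figure D5:**
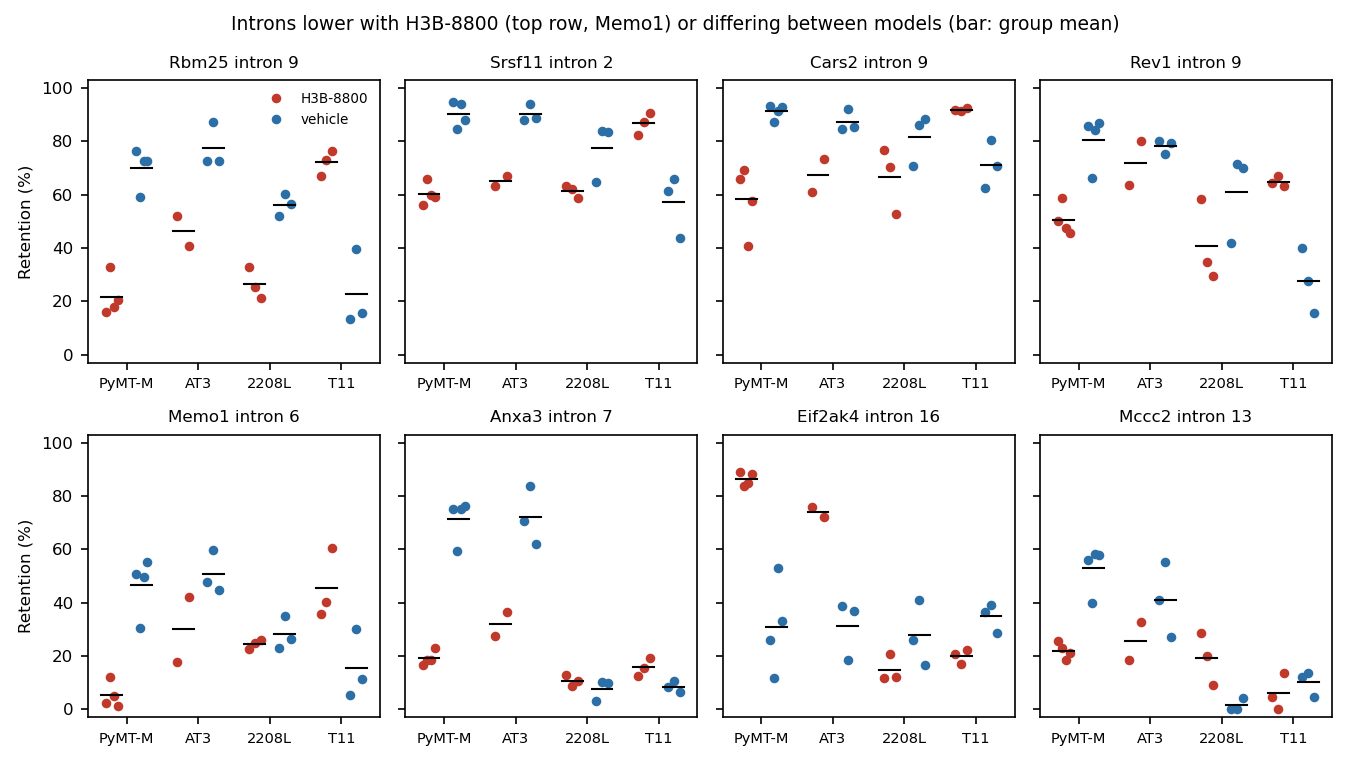
Retention (%, vertical axis) of 8 introns in every tumor, with H3B-8800 in red left of vehicle in blue for each model and black bars at group means; T11 points are by label. Rbm25 intron 9 is at 15.9% to 32.8% in PyMT-M H3B-8800 tumors and at 59% to 76.3% in vehicle tumors, and Anxa3 intron 7 is at most 19.2% in every tumor of 2208L and T11.

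Among the mid-length introns tested, 3 met the rule for staying spliced, whose cut was under 5% retention in every tumor. The test filter asked for a mean of 5 intronic reads. It left out 4795 mid-length introns with enough spliced but too few intronic reads. Introns that are spliced well can be among those left out, so the 3 cannot tell how many stayed spliced. The rule was not counted over all 52042 introns. Eif3c intron 8, in a gene of translation initiation, was at 0.852% to 3.03% in PyMT-M H3B-8800 tumors, against 1.12% to 2.72% in vehicle tumors. Atp6v1e1 intron 2, in a gene of the vacuolar proton pump, has 9862 bases and was at 0.396% to 0.882% in PyMT-M H3B-8800 tumors, against 0.317% to 3.09% in vehicle tumors. Serpine2, a serine protease inhibitor, had intron 4 at 0.794% to 1.96% in PyMT-M H3B-8800 tumors, against 0.509% to 3.36% in vehicle tumors. The PyMT-M groups overlapped in all 3. For Serpine2 intron 4 the AT3 libraries bear little on the rule, with 0 intronic reads of 18 overlapping reads with H3B-8800, which allows up to 16.7%, and 0 of 29 with vehicle, which allows up to 10.3%. In T11 labelled vehicle it was 0 of 183, which allows up to 1.64%.

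At the gene level, 668 of 6707 host genes with mid-length introns rose in PyMT-M (9.96%) and 1091 fell (16.3%), against 10.2% and 14.6% of 13001 genes. In 2208L 344 rose and 400 fell (5.13% and 5.96%), against 4.67% and 5.67%. In AT3 9 rose and 13 fell (0.134% and 0.194%), against 0.123% and 0.177%. In T11 484 were higher and 346 lower in tumors labelled H3B-8800 (7.22% and 5.16%), against 6.66% and 5.07%. In 2208L, T11 and AT3 these counts rest on single libraries. In 2208L the 744 host genes called became 323 or 198 without vehicle replicate 1 or 3, and 219 or 307 without H3B-8800 replicate 1 or 3. In T11 the 830 became 520, 451 or 525 without labelled H3B-8800 replicate 1, 2 or 3. In AT3 the 22 became 210 without H3B-8800 replicate 2, 4 without H3B-8800 replicate 1, and 5, 4 or 10 without vehicle replicate 1, 2 or 3. Without the 6 libraries with muscle or B cell markers, 974 host genes were called in PyMT-M, 0 in AT3 by edgeR (511 at an unadjusted p under 0.05), 178 in 2208L and 200 in T11. In PyMT-M 633 of 2667 genes with a mid-length intron that rose fell at the gene level (23.7%) and 246 rose, against 224 falls and 256 rises among 1853 genes whose tested mid-length introns did not rise. In 2208L 148 of 1334 fell (11.1%) and 37 rose, against 185 and 205 of 3186. In T11, of 892 genes with an intron lower in the tumors labelled H3B-8800, 125 were higher at the gene level and 10 lower. The spliced reads of the gene are the scale of the retention test, so these counts are not independent of the calls and are given as a description.

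Retention was also compared, after the data were seen, between C57BL/6 hosts (PyMT-M and AT3, 13 libraries) and Balb/c hosts (2208L and T11, 12 libraries). The host strain and the tumor model cannot be told apart. The test averaged the H3B-8800 and vehicle groups of the models of a strain, T11 by its labels. It set the difference against the spread between tumors within a group, so its p-values do not cover the spread between models of a strain. Of the 8213 mid-length introns, 3535 were higher and 106 lower in C57BL/6 (43% and 1.29%), against 41.9% and 1.13% of all 52042 introns, by edgeR with Benjamini-Hochberg adjustment. Without AT3 H3B-8800 replicate 2 the 3641 calls became 2096, and without the 6 libraries with muscle or B cell markers 954, of which 880 were higher and 74 lower. In 19 introns no library of one strain overlapped the other, or 0.231% of those tested, against 0.288% of all introns, and 17 were higher in C57BL/6. These were chosen after their values were seen. Clec16a intron 14, which holds an exon, was at 93% to 96.9% with a median of 95.7% in C57BL/6 hosts, against 0% to 34.6% with a median of 7.14% in Balb/c hosts. Snapc3 intron 6, in a gene of small nuclear RNA transcription, was at 48.1% to 78.3% in C57BL/6 hosts, against 0% to 9.76% in Balb/c hosts. Diap3 intron 18, in a formin gene and with no exon inside, was at 19.7% to 90% in C57BL/6 hosts and had no intronic read in any Balb/c library. Atp2c1 intron 14, in the gene of a Golgi calcium pump, went the other way, at 0% to 5.88% in C57BL/6 hosts, against 15.2% to 39.5% in Balb/c hosts.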

How the data were processed

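Whole-tumor RNA of 25 libraries, 12 labelled H3B-8800 and 13 labelled vehicle, was made into strand-specific polyA libraries, per the labels' protocols. HISAT2 2.0.4 and the builds mm10 and hg38 are named in the submitters' processing notes; the use of strand in counting is not given in the sources used here. Per intron, the deposited files hold the authors' count of intronic reads, the count of overlapping reads and an RPKM value. The deposited RPKM follows from the intronic count, the intron length and 1 total per library, and was used only for that check.

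Spliced reads are overlapping minus intronic reads, and retention is intronic over overlapping reads. Intronic counts were fitted with edgeR 4.0.16 (quasi-likelihood, robust) over all 8 groups, with the log of the spliced reads of the gene plus 0.5 as offset. Genes needed 1 CPM in 2 libraries, and introns a mean of 5 intronic and 10 spliced reads; Benjamini-Hochberg adjustment ran over 52042 introns. SE is the log2 change over the square root of F. Gene levels are summed spliced reads scaled by TMM (13001 genes). On simulated data of PyMT-M with 52042 introns, 78% of 4-fold and 3% of 2-fold changes were recovered, with 4 wrong calls. With 13001 genes they were 88% and 7%, with 2 wrong calls. Few introns or genes changed in the simulation and their spread was fixed, while 60.3% of introns were called in the PyMT-M data. The simulated shares therefore do not give the recovery or the error in the real data. Upper limits given for groups with no intronic read cover counting error only. The p-values and SE set a group difference against the spread between tumors, and SD is the spread between tumors of a group.

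Named introns were the 12 exon-free ones with the largest smallest change among those higher and without overlap in PyMT-M, AT3 and 2208L with a mean of 20 spliced reads; the 8 that fell in all 3, filled by p in PyMT-M; up to 3 per gene list by p in PyMT-M; those below 5% retention throughout; and the 5 with the smallest p of PyMT-M minus 2208L. Members, gene lists and the rule were chosen with earlier results of these data known. Sequences and exons come from GENCODE M21 (GRCm38); the 3′ and 5′ ends of most introns were not analysed here, and those of mouse chromosome 18 are not printed. The same number does not pair tumors: deviations from group means correlated between -0.395 and 0.483. Alternatives were another offset, DESeq2 1.42.0, other filters, exon-free introns, a replicate block, leaving out each library, and, added after the data were seen, the fit without T11, without 6 libraries with muscle or B cell markers, and the comparison of host strains.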

Additional observations from a re-analysis of the deposited data

Results flagged for a closer look

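Groups of 4 PyMT-M tumors were examined for named introns and for mean and pooled retention over the mid-length introns. They include Itpr1 intron 39 in H3B-8800 tumors, with 0 intronic reads, where no tumor could lie apart. Among 128 such groups, 1 tumor lay far from the other 3 in 10, and chance gives about 1 in 20. In 5 of them it was vehicle replicate 4, at 38.1% for Sh3pxd2b intron 3 (others 0% to 5.41%), 16.2% for Gramd3 intron 8 (3.79% to 5.13%), 40% for Cherp intron 2 (22.6% to 25.5%), 32.5% for Sugp1 intron 3 (6.45% to 10.5%) and 32.1% for Rb1cc1 intron 7 (6.9% to 10%). In 4 it was vehicle replicate 2, at 66.2% for Rev1 intron 9 (84.1% to 86.7%), 18.2% for Dhx8 intron 11 (3.33% to 4.89%), 59.5% for Anxa3 intron 7 (75.1% to 76.3%) and 39.9% for Mccc2 intron 13 (56.2% to 58.2%). For Apaf1 intron 20 it was H3B-8800 replicate 3, at 85.1% with the others at 87% to 87.2%.

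The H3B-8800 effect differed past edgeR's test between PyMT-M and 2208L for 6 named introns. The log2 difference, PyMT-M minus 2208L, was -3.86 for Anxa3 intron 7, -3.62 for Memo1 intron 6, -5.90 for Mccc2 intron 13, 4.57 for Eif2ak4 intron 16, 2.95 for Gsr intron 10 and 2.74 for Ttc17 intron 2. Gsr, which encodes glutathione reductase, had this intron at 79.5%, 79.9%, 74.3% and 78.6% in PyMT-M H3B-8800 tumors, against 26.4%, 22.5%, 29.2% and 29.7% in vehicle tumors, and at 33.1%, 29.5% and 35% in 2208L H3B-8800 tumors, against 32%, 23.1% and 31.5% in vehicle tumors. Gm24727 lies inside it.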

How the results depend on the processing

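Counts are of mid-length introns called by edgeR unless another tool is named. With the intronic library size as offset, AT3 gave 585, 2208L 930, PyMT-M minus AT3 46, PyMT-M minus 2208L 209, AT3 minus 2208L 2 and C57BL/6 minus Balb/c 2043; 123 rose and 84 fell in all 3 models, and Dhx8 intron 11 (log2 -0.04) and Suv39h1 intron 2 (log2 -0.22) turned negative in PyMT-M. Among introns without an exon, fewer were tested, and the counts were 2391 in PyMT-M, 795 in AT3, 935 in 2208L, 648 in T11, 3 for PyMT-M minus 2208L and 2101 between strains, with 406 higher and 0 lower in all 3. The stricter filter gave 2281 in PyMT-M, 15 for PyMT-M minus 2208L and 2175 between strains. The filter on spliced reads alone gave 1 for PyMT-M minus AT3 and 16 for PyMT-M minus 2208L. Without a filter these were 91 and 53, AT3 minus 2208L gave 12, and 2 fell in all 3, as with the spliced reads of the intron as offset. DESeq2 gave 32, 106 and 2 for the 3 differences. The fit without T11 gave 1 for PyMT-M minus AT3. Without the 6 libraries with muscle or B cell markers, 2208L gave 369, T11 326, PyMT-M minus 2208L 0, the strains 954, and 229 rose in all 3.

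Leaving out 1 library gave 3318 to 4475 in PyMT-M, 192 to 1534 in AT3, 681 to 1287 in 2208L, 608 to 1401 in T11, 0 to 21 for PyMT-M minus AT3, 1 to 27 for PyMT-M minus 2208L, 0 for AT3 minus 2208L, 2096 to 4081 between strains, and 90 to 845 higher and 0 to 4 lower in all 3. For host genes it gave 1233 to 1733 in PyMT-M, 4 to 210 in AT3, 198 to 816 in 2208L and 451 to 928 in T11. Without the 6 libraries these were 974, 0, 178 and 200. DESeq2 gave 137 host genes in AT3 and 1128 in 2208L, the median over introns 4 and 479, and no filter 14 in AT3. The pooled difference was 11.9 to 17.8 percentage points in PyMT-M, 4.53 to 12.3 in AT3, 6.44 to 7.91 in 2208L and -6.83 to -2.75 in T11; as intronic reads per kb per 100 spliced reads it was 6.81 in PyMT-M and 2.41 in 2208L. The cause of these moves was not tested.

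With the replicate number as a block, PyMT-M gave 4006, AT3 1126, 2208L 1638 and T11 1046 introns, and AT3 11 host genes. Same-numbered tumors did not correlate best with each other, except number 3 in PyMT-M and 1 in T11. Introns with few reads limit the calls: 22.1% of those with 5 to 10 mean intronic reads rose in PyMT-M, and 63.6% of those with 50 or more.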
